A study of Mus musculus with 20 samples.

Results

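The cytochrome P450 genes Cyp2b9, Cyp2b10 and Cyp2b13, the nuclear receptor genes Nr1i3, Nr1i2 and Rxra and the reductase gene Por were followed in RNA-sequencing libraries of mouse liver. These 7 of 55487 counted gene identifiers were taken by symbol. They were chosen by values in these same data: Cyp2b10 was lower, and Cyp2b9 and Cyp2b13 higher, on a high-fat diet (HFD) than on chow. All values of the 7 genes against chow are therefore a description with no test, and tests were made only within the HFD mice or on other genes.

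Liver RNA came from 20 female C57BL/6J mice, 1 library per mouse, and the question was how HFDs with different protein sources act on the liver. All mice entered at 8 weeks of age and were sampled at 28 weeks. By the sample labels, 5 mice stayed on chow (Chow), and 15 first received HFD and then, for the last 10 weeks, an HFD in which 50% of the protein came from salmon fishmeal (Fishmeal, 5 mice), salmon filet (Salmon, 6 mice) or beef (Beef, 4 mice). Mouse 31 is labelled Salmon, but its column in the count table is headed Beef. The headings give 5 Salmon and 5 Beef mice, the group size the paper states for sequencing, and the labels do not. Mouse 31 is kept as labelled, and most results that compare Salmon or Beef are also given with mouse 31 counted as Beef. It has no bearing on HFD versus chow.

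Total counts on genes were 42526234 to 70266136 per library. The share on protein coding genes was 93.2% to 95.6%, and 84.3% in Beef mouse 35. The liver label was checked against hepatocyte markers (Alb, Apoa1, Ttr, Serpina1b and Apob), whose summed level was 97635.5 to 122813 CPM (a gene's counts relative to its library's total, with edgeR's TMM scaling) on chow and 87447 to 119834 CPM on HFD, with 0 of 5 called by edgeR. Summed adipocyte markers stayed at or below 0.215 CPM and those of exocrine pancreas at or below 0.35 CPM, and Lep was at 0 in every library. In whole liver, fewer cells of a type and less RNA per cell cannot be told apart.

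CYP2B enzymes are membrane-bound P450s of hepatocytes that oxidise drugs, steroids and fatty acids, and they take their electrons from NADPH through the reductase encoded by Por. Cyp2b10 is the classic gene switched on in mouse liver when the constitutive androstane receptor (CAR, encoded by Nr1i3) is activated by phenobarbital-like compounds, and the pregnane X receptor (PXR, Nr1i2) shares many of the same target genes. Both receptors bind DNA together with the retinoid X receptor, of which Rxra encodes the main liver form. Cyp2b9 and Cyp2b13 are best known as genes with higher expression in female than in male mouse liver.

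Cyp2b10 (ENSMUSG00000030483), Cyp2b13 (ENSMUSG00000040583) and Cyp2b9 (ENSMUSG00000040660) lie on the plus strand of chromosome 7, at chr7:25897620-25926624, chr7:26061497-26096197 and chr7:26173411-26210661 of GRCm38. The windows before their start sites are shown as a description of sequence, and a link to the differences between diets was not tested. They are printed 5′ to 3′ over 212 bases each, beginning 250 bases before the RefSeq start (GRCm38.p6) and ending short of it, at chr7:25897408-25897619, chr7:26061245-26061456 and chr7:26173159-26173370. Capitals mark the match to TTGCNNAA, the core of the sites bound by C/EBP factors, in Cyp2b10, and the 2 bases that differ between the other windows. The matches to TTGCNNAA in the Cyp2b13 and Cyp2b9 windows are left in lower case.
Cyp2b10: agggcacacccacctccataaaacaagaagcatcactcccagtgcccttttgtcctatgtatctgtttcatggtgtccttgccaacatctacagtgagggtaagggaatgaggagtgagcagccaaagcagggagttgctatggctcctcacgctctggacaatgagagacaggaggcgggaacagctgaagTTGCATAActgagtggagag
Cyp2b13: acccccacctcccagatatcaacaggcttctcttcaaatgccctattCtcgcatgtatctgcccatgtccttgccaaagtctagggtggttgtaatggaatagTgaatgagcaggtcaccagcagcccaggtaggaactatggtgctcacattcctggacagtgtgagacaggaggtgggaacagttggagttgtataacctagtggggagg
Cyp2b9: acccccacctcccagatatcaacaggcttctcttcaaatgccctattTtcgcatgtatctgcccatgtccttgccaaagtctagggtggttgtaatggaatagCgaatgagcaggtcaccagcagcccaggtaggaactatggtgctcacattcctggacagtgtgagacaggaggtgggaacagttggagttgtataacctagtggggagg

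Over the 250 bases before the start, Cyp2b9 and Cyp2b13 were 99.2% identical, with 2 substitutions. Counted from the first printed base, with the base of Cyp2b13 first, these are C48T and T104C. Cyp2b10 was 70.0% identical to each of them. The longest coding sequences were less alike between Cyp2b9 and Cyp2b13, at 92.7%, and more alike between Cyp2b10 and Cyp2b9 (86.2%) or Cyp2b13 (87.2%), so the start windows of Cyp2b9 and Cyp2b13 differ less from each other than their coding parts do.

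Short motifs were searched on both strands in 32851 windows, each of the 250 bases before a start, among them those of all 7 genes. TTGCNNAA was present in 9.56% of all windows, in Cyp2b10 from base -58 to -51 and in Cyp2b9 and Cyp2b13 from base -180 to -173. AGGTCA, a core hexamer of nuclear receptor sites, was present in 14.0% of windows, including those of Cyp2b9, Cyp2b13 and Rxra, and was not found in that of Cyp2b10. The other receptor hexamer AGTTCA (11.8% of windows), a direct repeat of either hexamer with 4 bases between (0.0244%), the sequence TTATGTAA bound by clock output factors (0.819%) and the STAT site TTCNNNGAA (7.02%) had no match in the windows of the 7 genes. Some letters of these motifs overlap, and a match or its lack in this window is a description of sequence only.

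Cyp2b10 was the gene with the largest difference between diets among the 7. In Chow mice 1, 2, 5, 7 and 10 it stood at 69.6, 32.9, 18.8, 31.8 and 23.3 CPM. In Fishmeal mice 12, 13, 14, 16 and 20 it stood at 5.36, 0.966, 0.696, 3.36 and 0.494 CPM, and in Beef mice 32, 35, 39 and 40 at 1.86, 1.38, 1.51 and 0.841 CPM. The 6 Salmon mice lay between 0.941 and 3.65 CPM with a median of 2.11 CPM. All 15 HFD mice were thus below the lowest chow mouse, and Chow mouse 1 stood well above the other chow mice.

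The log2 fold change of Cyp2b10 in HFD versus chow was -4.14 (SE 0.365), a 17.7-fold lower level. It was -4.03 (SE 0.614) for Fishmeal, -3.98 (SE 0.391) for Salmon and -4.66 (SE 0.417) for Beef against the same chow mice. With mouse 31 counted as Beef the Salmon and Beef values were -3.96 and -4.52. Without Fishmeal mouse 12 the Fishmeal value was -4.66. With the clock score described further on as a covariate the values were -2.27 for Fishmeal and -2.97 for Beef. No Fishmeal or Beef mouse, as labelled, had a score within the chow range, so score and diet cannot be told apart in these fits. The differences from chow helped to choose the gene, so no test is given. In all, 1.64% of the 17120 genes tested in HFD versus chow had groups that did not overlap in either direction.

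The raw counts behind these levels were 1077 to 4562 on chow and 22 to 318 on HFD. Of the 2103 distinct 50-base stretches of Cyp2b10 transcripts, 8.70% also occur in another gene, 146 of them in Cyp2b13. How the authors counted reads that fit several genes is not given in the sources used here, and the share of such reads in the low HFD counts of Cyp2b10 was not tested.

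**Figure D1:**
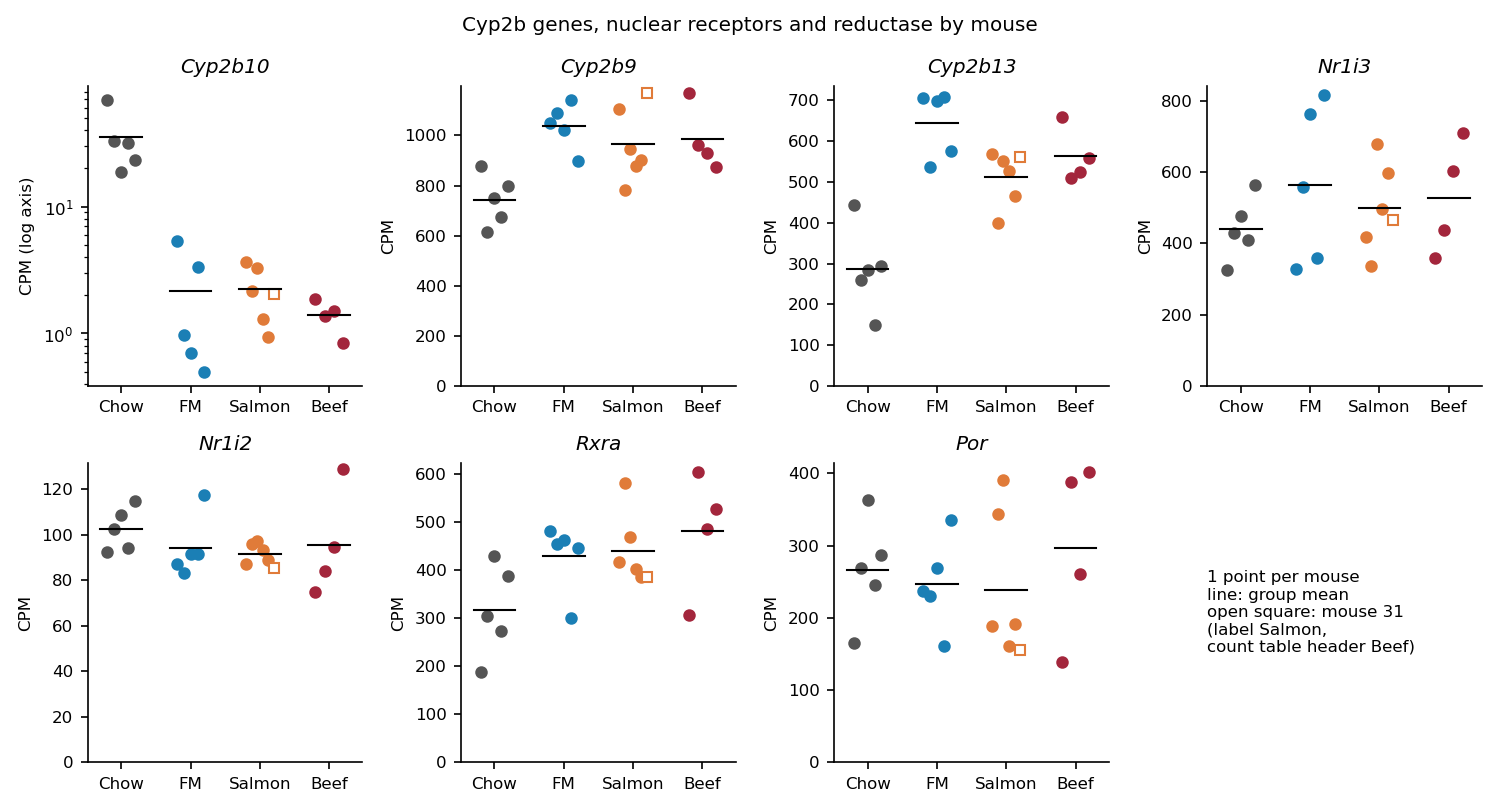
Level of each of the 7 genes in CPM (vertical axes; the axis of Cyp2b10 is logarithmic, the others start at 0) by diet group, with 1 point per mouse and a line at the group mean; the open square is mouse 31. Cyp2b10 of the HFD mice, 0.494 to 5.36 CPM, lies below that of all chow mice. For the other 6 genes the HFD mice as 1 group overlap the chow mice. Cyp2b9 in Fishmeal and Cyp2b13 in Fishmeal and Beef lie above all chow mice, but how many of all genes do so by single diet was not counted.

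Cyp2b13 was higher on HFD. It stood at 443, 261, 285, 149.7 and 294.5 CPM in Chow mice 1, 2, 5, 7 and 10 and at 706, 537, 698, 707 and 575 CPM in Fishmeal mice 12, 13, 14, 16 and 20. Beef mice 32, 35, 39 and 40 had 659.9, 509, 524 and 560.0 CPM, and the Salmon mice had 398 to 569 CPM with a median of 539 CPM. Of the 15 HFD mice, 14 were above the highest chow mouse, Chow mouse 1, and the groups overlapped through Salmon mouse 23. The log2 fold change was 0.99 (SE 0.168), and it was 1.163 (SE 0.220), 0.84 (SE 0.208) and 0.97 (SE 0.236) for Fishmeal, Salmon and Beef. With mouse 31 counted as Beef the Salmon value was 0.82.

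Cyp2b9, the most abundant of the 7 genes, was higher on HFD by a smaller fold. Chow mice 1, 2, 5, 7 and 10 had 879.7, 614, 749.5, 675 and 796 CPM, and Fishmeal mice 12, 13, 14, 16 and 20 had 1048, 1089, 1021, 1140.3 and 898 CPM. Beef mice 32, 35, 39 and 40 had 1169.5, 961, 929.8 and 875 CPM, and the Salmon mice had 783 to 1169 CPM with a median of 924 CPM. All 15 HFD mice were above the chow mean and 12 above the highest chow mouse. The log2 fold change was 0.42 (SE 0.102), or 1.34-fold. It was 0.48, 0.38 and 0.40 for Fishmeal, Salmon and Beef, and the Salmon and Beef values were 0.32 and 0.45 with mouse 31 counted as Beef.

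Both genes share sequence with each other and with the pseudogene Gm45225: 27.3% of the 50-base stretches of Cyp2b13 and 11.2% of those of Cyp2b9 occur in another gene, so their split rests on the authors' counting. The pseudogene Rnf170-ps also lies inside Cyp2b13 on the same strand.

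Levels of different genes were compared per length, in TPM, the authors' length-corrected values. Cyp2b9, Cyp2b13 and Cyp2b10 together came to 1458 ± 235 TPM on chow (SD, n = 5) and 2093 ± 305 TPM on HFD (SD, n = 15). Cyp2b10 took 2.89% ± 1.18 of this sum on chow, from 1.58% to 4.47% by mouse. It took 0.111% ± 0.0698 on HFD, from 0.0298% to 0.271%. Cyp2b13 took 26.4% ± 5.39 of the sum on chow and 36.3% ± 2.67 on HFD, and Cyp2b9 took 70.7% ± 5.73 and 63.6% ± 2.68. The sum was thus larger on HFD although Cyp2b10 was nearly gone from it, and Cyp2b9 remained its largest part in all 20 mice. Between these genes, the TPM of Cyp2b13 was 5.30 to 17.1 times that of Cyp2b10 in the chow mice and 148 to 1310 times in the HFD mice.

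**Figure D2:**
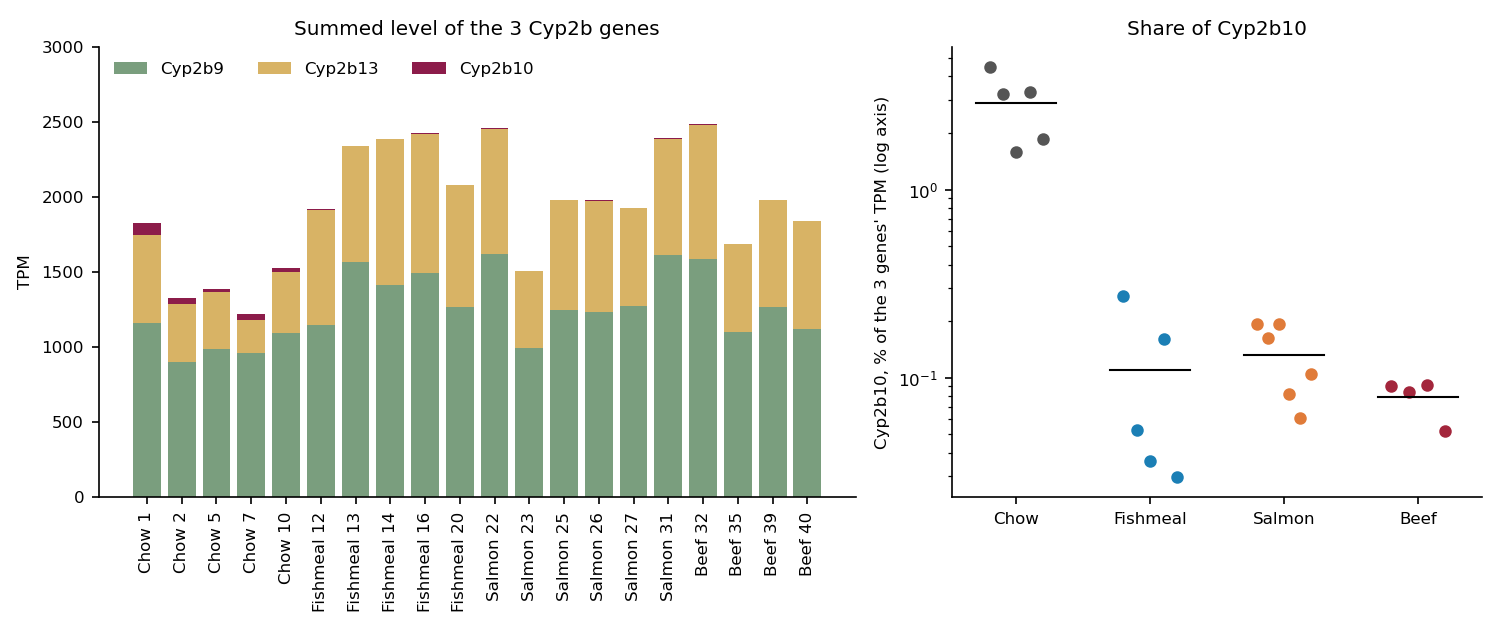
Left, stacked bars of the TPM of Cyp2b9, Cyp2b13 and Cyp2b10 in each of the 20 mice, from 0; right, the share of Cyp2b10 in their sum in percent on a logarithmic axis, with 1 point per mouse and a line at the group mean. The share is 1.58% to 4.47% in the chow mice and 0.0298% to 0.271% in the HFD mice.

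The other Cyp2b genes of the annotation added little. Cyp2b19 had 0 counts in all 20 libraries, where 3 counts would be at most 0.0705 CPM. Cyp2b23 had 0 or 1 count per library, and the pseudogene Cyp2b26-ps had 2 to 10 counts. The pseudogene Cyp2b27-ps, with 9 to 133 counts, was tested as it is no member: it rose from 0.582 ± 0.338 CPM on chow to 1.37 ± 0.508 CPM on HFD, by 1.219 on the log2 scale (SE 0.333, adjusted p = 0.022 by edgeR's quasi-likelihood test), and 14 of 15 HFD mice were above the chow mean. Its adjusted p was 0.0716, 0.0718 and 0.0533 without Chow mouse 2, 7 or 10. Of its 50-base stretches 57.1% also occur in Cyp2b26-ps, and the long noncoding gene BC026762 overlaps it on the opposite strand.

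The receptor gene Nr1i3 (ENSMUSG00000005677, chr1:171213970-171220701, plus strand) stood at 325, 429, 478, 408 and 563 CPM in Chow mice 1, 2, 5, 7 and 10. It stood at 327, 559.5, 765, 358 and 818 CPM in Fishmeal mice 12, 13, 14, 16 and 20 and at 359, 438, 605 and 711 CPM in Beef mice 32, 35, 39 and 40. The Salmon mice had 337 to 679 CPM with a median of 481 CPM. High and low mice occurred in every HFD group, and 9 of 15 HFD mice were above the chow mean. The log2 fold change was 0.26 (SE 0.200). Tomm40l overlaps Nr1i3 on the opposite strand, where it shares 63.6% of the 50-base stretches of Nr1i3, and it had 163 to 551 counts per library against 19210 to 46134 for Nr1i3.

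Nr1i2 (ENSMUSG00000022809, chr16:38248323-38294824, minus strand) had a level of 92.3 to 115 CPM in the 5 chow mice, with a median of 103 CPM, and 75.03 to 129 CPM in the 15 HFD mice, with a median of 91.4 CPM. Of the HFD mice, 13 were below the chow mean and 9 below the lowest chow mouse, while Fishmeal mouse 20 and Beef mouse 40 were above the highest. The log2 fold change was -0.13 (SE 0.095).

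Rxra (ENSMUSG00000015846, chr2:27676440-27762957, plus strand) encodes the shared partner of CAR and PXR. It had 189 to 429.9 CPM on chow, with a median of 305 CPM, and 301 to 604 CPM on HFD, with a median of 454 CPM. Of the HFD mice, 13 were above the chow mean and 9 above the highest chow mouse, and the log2 fold change was 0.50 (SE 0.164).

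Por (ENSMUSG00000005514, chr5:135670033-135735326, plus strand) overlapped widely between the diets. Chow mice 1, 2, 5, 7 and 10 had 165, 269, 364, 245 and 288 CPM, Fishmeal mice 12, 13, 14, 16 and 20 had 238, 229.9, 269.5, 161 and 336 CPM, and Beef mice 32, 35, 39 and 40 had 139, 387, 261 and 402 CPM. The Salmon mice had 156 to 391 CPM with a median of 191 CPM. The lowest and the highest of all 20 mice were both on beef. The log2 fold change was -0.05 (SE 0.236).

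By TPM, the order on chow was Cyp2b9 (1022 ± 104), Cyp2b13 (393 ± 132), Nr1i3 (259 ± 52.7), Por (172 ± 44.9), Rxra (130.2 ± 37.6), Nr1i2 (104 ± 10.3) and Cyp2b10 (43.1 ± 23.2; SD, n = 5). The ranges of Cyp2b9 and Cyp2b10 stood apart from that of their neighbour, and those of the other neighbours overlapped. On HFD the order was Cyp2b9 (1330.2 ± 205), Cyp2b13 (761 ± 122), Nr1i3 (303 ± 102), Rxra (177 ± 29.0), Por (158 ± 53.6), Nr1i2 (91.8 ± 14.8) and Cyp2b10 (2.31 ± 1.46; SD, n = 15). There the range of Cyp2b9 stood apart from that of Cyp2b13, that of Cyp2b13 from that of Nr1i3, and that of Nr1i2 from that of Cyp2b10, while Nr1i3, Rxra, Por and Nr1i2 overlapped in turn.

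Whether the protein source mattered for the 7 genes was tested among the HFD mice, which the choice of the genes did not use. None of the 7 was called by edgeR at an adjusted p under 0.05 in Fishmeal versus Salmon, Fishmeal versus Beef or Salmon versus Beef, where 0.157%, 0.00607% and 0% of all genes tested were called. At an unadjusted p under 0.05 there were 1, 0 and 0 of 7, beside 4.24%, 2.33% and 3.71% of all genes tested, and DESeq2 called 0 of 7 in each pair with the same unadjusted counts. limma also called 0 of 7 in each pair. The 1 gene was Cyp2b13, with a log2 fold change of 0.33 in Fishmeal over Salmon (95% interval 0.07 to 0.59, SE 0.121). Its adjusted p by edgeR was 0.976, and its groups overlapped.

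Cyp2b10, at its low HFD level, had the widest intervals. Its log2 fold change was -0.03 (95% interval -1.22 to 1.15) in Fishmeal versus Salmon, 0.63 (-0.72 to 1.99) in Fishmeal versus Beef and 0.68 (-0.11 to 1.47) in Salmon versus Beef. On the linear scale these intervals ran from 0.43-fold to 2.22-fold, from 0.606-fold to 3.96-fold and from 0.928-fold to 2.77-fold. For Cyp2b9 the values were 0.11 (-0.15 to 0.36), 0.07 (-0.21 to 0.36) and -0.02 (-0.31 to 0.28).

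The intervals of the receptor genes and Por all included 0, and the widest reached from -1.02 to 0.40 for Por in Salmon versus Beef. With mouse 31 counted as Beef, 0 of 7 were called in each pair, Cyp2b13 in Fishmeal versus Salmon had a log2 fold change of 0.34 (95% interval 0.06 to 0.62), and Cyp2b10 in Salmon versus Beef one of 0.58 (95% interval -0.21 to 1.36).

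**Figure D3:**
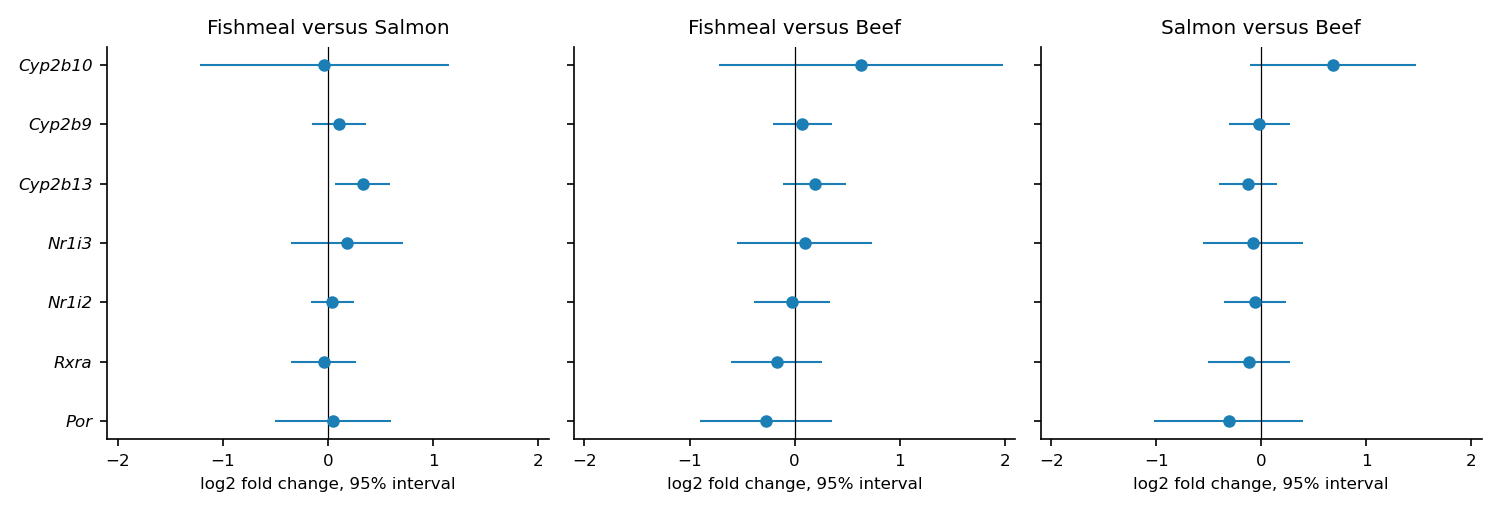
Log2 fold change of each gene (points) with its 95% interval (lines) from edgeR in the 3 comparisons between HFD groups, with mice grouped as labelled. Only the interval of Cyp2b13 in Fishmeal versus Salmon, 0.07 to 0.59, leaves out 0, and its adjusted p is 0.976.

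Within the HFD groups, 6 relations among the genes were tested over the 15 HFD mice on log2 CPM relative to the group mean. Cyp2b9 and Cyp2b13 went together, with Pearson r = 0.69 (permutation p = 0.011, 0.0385 adjusted over the 6) and Spearman rho = 0.76 (permutation p = 0.00353, 0.0212 adjusted). Without the 2 mice farthest from the median of Cyp2b9, r was 0.60. Within groups r was 0.34 in Fishmeal, 0.83 in Salmon and 0.79 in Beef. As the genes share sequence, reads counted to the wrong copy would also tie their values, and the part of this was not tested.

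Nr1i3 and Cyp2b10 went in opposite directions, with r = -0.75 (permutation p = 0.0128, 0.0385 adjusted) and rho = -0.72 (permutation p = 0.02, 0.06 adjusted). Without the 2 mice farthest from the median of Nr1i3, r was -0.60. By group r was -0.98 in Fishmeal, -0.19 in Salmon and -0.82 in Beef, so it was weak in the largest group as labelled. On log2(TPM + 1) r was -0.72 with an adjusted permutation p of 0.062.

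Neither relation was firm against the loss of 1 mouse. The adjusted permutation p of Cyp2b9 with Cyp2b13 passed 0.05 on leaving out any HFD mouse other than Fishmeal mouse 13, Salmon mouse 25, Salmon mouse 26 or Beef mouse 35, up to 0.166 without Beef mouse 32, while r stayed between 0.56 and 0.83. That of Nr1i3 with Cyp2b10 passed 0.05 on leaving out any HFD mouse other than Salmon mouse 23, 25 or 26 or Beef mouse 35, up to 0.139 without Beef mouse 32, while r stayed between -0.88 and -0.66. The other relations did not pass. For Cyp2b9 with Cyp2b10, r was 0.46 (permutation p = 0.059, 0.118 adjusted), rho 0.55 (permutation p = 0.0388, 0.0776 adjusted) and r without the 2 farthest mice 0.53. For Cyp2b10 with Cyp2b13, r was 0.47 (permutation p = 0.114, 0.171 adjusted), rho 0.51 (0.0761, 0.114 adjusted) and r without the 2 farthest mice 0.37. For Nr1i3 with Cyp2b9, r was -0.37 (permutation p = 0.159, 0.191 adjusted), rho -0.39 (0.158, 0.189 adjusted) and r without the 2 farthest mice -0.31. For Nr1i3 with Cyp2b13, r was -0.17 (permutation p = 0.57, 0.57 adjusted), rho -0.30 (0.307, 0.307 adjusted) and r without the 2 farthest mice 0.02. Cyp2b9 with Cyp2b10 reached r = 0.54 (adjusted permutation p = 0.0442) with mouse 31 counted as Beef. Nr1i3 with Cyp2b9 reached r = -0.68 (adjusted permutation p = 0.0262) without Salmon mouse 23.

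**Figure D4:**
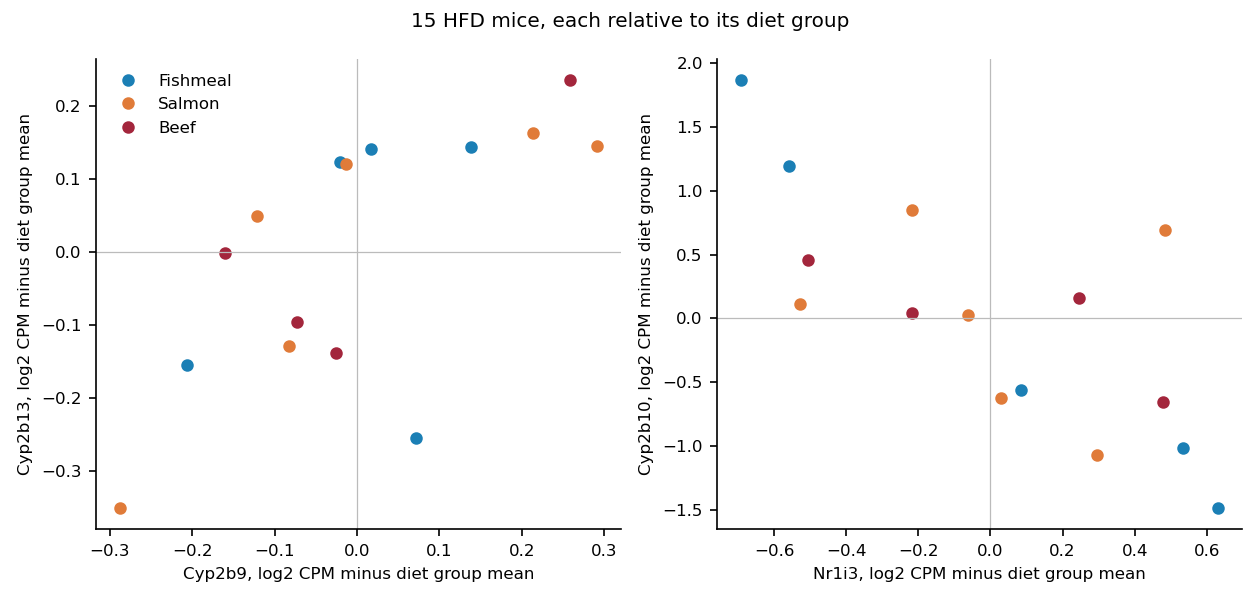
Left, Cyp2b13 against Cyp2b9, and right, Cyp2b10 against Nr1i3, in log2 CPM minus the mean of the mouse's diet group, with 1 point for each of the 15 HFD mice. The left points rise together (r = 0.69), and on the right the Fishmeal and Beef points run from upper left to lower right while the Salmon points spread (r = -0.75 over all).

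Expression of circadian clock genes differed between the diets, and it varied among the HFD mice. The hour of sampling is not given in the sources used here. A clock score was made for each mouse as the mean log2 CPM of 10 genes of the second arm of the clock (such as Dbp, Tef and the Per genes) minus that of 5 genes of the first arm (such as Arntl and Npas2). It was -3.30 to -1.38 in the chow mice and -2.50 to 3.04 in the HFD mice. Salmon mice 22 and 31, at -1.69 and -2.50, lay in the chow range.

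Among the HFD mice, the relation of each of the 7 genes to the clock score was tested after the data were seen, again relative to group means. Por followed the score most closely, with r = 0.85 (permutation p adjusted over the 7 = 0.00035) and rho = 0.81 (adjusted permutation p = 0.00245), and r was 0.79 without the 2 mice farthest from the median score. Nr1i2 (r = 0.71, adjusted permutation p = 0.00021; rho = 0.76, adjusted permutation p = 0.00451) and Nr1i3 (r = 0.68, adjusted permutation p = 0.0264; rho = 0.62, adjusted permutation p = 0.0506) were higher, and Cyp2b9 was lower (r = -0.74, adjusted permutation p = 0.0109; rho = -0.74, adjusted permutation p = 0.0106), in mice of higher score. Rxra (r = 0.56, adjusted permutation p = 0.0595; rho = 0.57, adjusted permutation p = 0.0506), Cyp2b10 (r = -0.41, adjusted permutation p = 0.208; rho = -0.35, adjusted permutation p = 0.244) and Cyp2b13 (r = -0.32, adjusted permutation p = 0.289; rho = -0.48, adjusted permutation p = 0.115) did not pass. Without the 2 mice farthest from the median score r was 0.67, 0.54, -0.82, 0.63, -0.50 and -0.43 for Nr1i2, Nr1i3, Cyp2b9, Rxra, Cyp2b10 and Cyp2b13.

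On log2(TPM + 1), only Por passed by r (adjusted permutation p = 0.00042), and Cyp2b9, Nr1i3, Nr1i2 and Rxra had an adjusted permutation p of 0.0573. The relation of Nr1i3 was lost without Fishmeal mouse 20, Salmon mouse 25, Beef mouse 32 or Beef mouse 40 (adjusted permutation p = 0.0513 to 0.0733) and that of Cyp2b9 without Beef mouse 32 (0.0531). Rxra passed without Fishmeal mouse 12 (0.0362) or Fishmeal mouse 13 (0.0414).

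With the clock score as a covariate in edgeR, the log2 fold changes of HFD versus chow were -3.41 (SE 0.515) for Cyp2b10, 1.01 (SE 0.209) for Cyp2b13 and 0.57 (SE 0.119) for Cyp2b9. Those of Por, Nr1i2 and Nr1i3 moved to -0.83 (SE 0.185), -0.36 (SE 0.099) and -0.21 (SE 0.202), and that of Rxra to 0.20 (SE 0.179). In this fit the direction of the 3 Cyp2b genes was the same with and without the covariate. That of Nr1i3 turned from 0.26 (SE 0.200), with both values close in size to their SE. Fitted by diet, the 3 Cyp2b genes also kept their direction. Nr1i3 turned in Fishmeal (-0.48), Salmon (-0.03) and Beef (-0.86). Its values without the covariate were 0.35 (SE 0.256), 0.18 (SE 0.178) and 0.25 (SE 0.213). Rxra (-0.63) and Por (-1.65) turned in Beef, from 0.59 (SE 0.245) and 0.15 (SE 0.296). Nr1i2 moved there from -0.11 to -0.91. Score and diet overlapped in 2 HFD mice, both labelled Salmon, and cannot be fully told apart in the fit of all HFD mice or of Salmon. In the Fishmeal and Beef fits no HFD mouse had a score within the chow range, so there they cannot be told apart.

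Other genes that CAR and PXR switch on, a list of 33, were tested in HFD versus chow. Of 31 measured, 13 fell, 2 rose and 16 did not pass, with a median log2 fold change of -0.43 beside 0.005 for all genes tested. Among all 17120 genes, 5.21% were called lower and 4.54% higher. The list holds enzymes and transporters of drug handling, and those that fell included P450s, conjugating transferases, a carboxylesterase and an efflux pump. With the clock score as covariate, 5 were called lower and 0 higher, where 161 of all 17120 genes were called lower and 172 higher.

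Ugt1a9, a glucuronosyltransferase, fell from 112 ± 18.3 CPM on chow to 20.9 ± 8.22 CPM on HFD (log2 fold change -2.42, SE 0.243, adjusted p = 1.27e-06 by edgeR), and the highest HFD mouse, at 33.2 CPM, was below the lowest chow mouse, at 91.0 CPM. Akr1b7, an aldo-keto reductase, fell from 1.79 ± 0.823 to 0.398 ± 0.192 CPM (log2 fold change -2.15, SE 0.282, adjusted p = 3.98e-05). The P450 gene Cyp2c55 fell by 1.71 on the log2 scale (SE 0.322, adjusted p = 0.0015), from 5.06 ± 3.41 to 1.55 ± 0.767 CPM. Groups did not overlap for 4 of the 31 genes, beside 1.64% of all genes: Ugt1a9, Akr1b7, the export pump gene Abcc4 and the carboxylesterase gene Ces2a, which fell by 0.92 and 0.89 on the log2 scale (adjusted p = 0.00255 and 3.98e-05 by edgeR).

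The oestrogen sulfotransferase gene Sult1e1 went the other way, from 0.136 ± 0.125 CPM on chow to 1.99 ± 2.93 CPM on HFD, higher by 3.85 on the log2 scale (SE 1.03, adjusted p = 0.0198 by edgeR). It was above the chow mean in 14 of 15 HFD mice, which spread from 0.0702 to 11.01 CPM, and its adjusted p was 0.064, 0.0596 and 0.0576 without Chow mouse 1, 2 or 7. Picked out after their values were seen, the main PXR target Cyp3a11 fell from 3020.0 ± 997 to 1678 ± 416 CPM (log2 fold change -0.85, adjusted p = 0.00313 by edgeR) and the coumarin hydroxylase gene Cyp2a5 rose from 214 ± 45.4 to 443 ± 162 CPM (log2 fold change 1.05, adjusted p = 0.00746). Several of these genes belong to families of close copies (such as Ugt1a, Cyp2c and Cyp2a), whose reads the counting may have split in ways not known here.

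**Figure D5:**
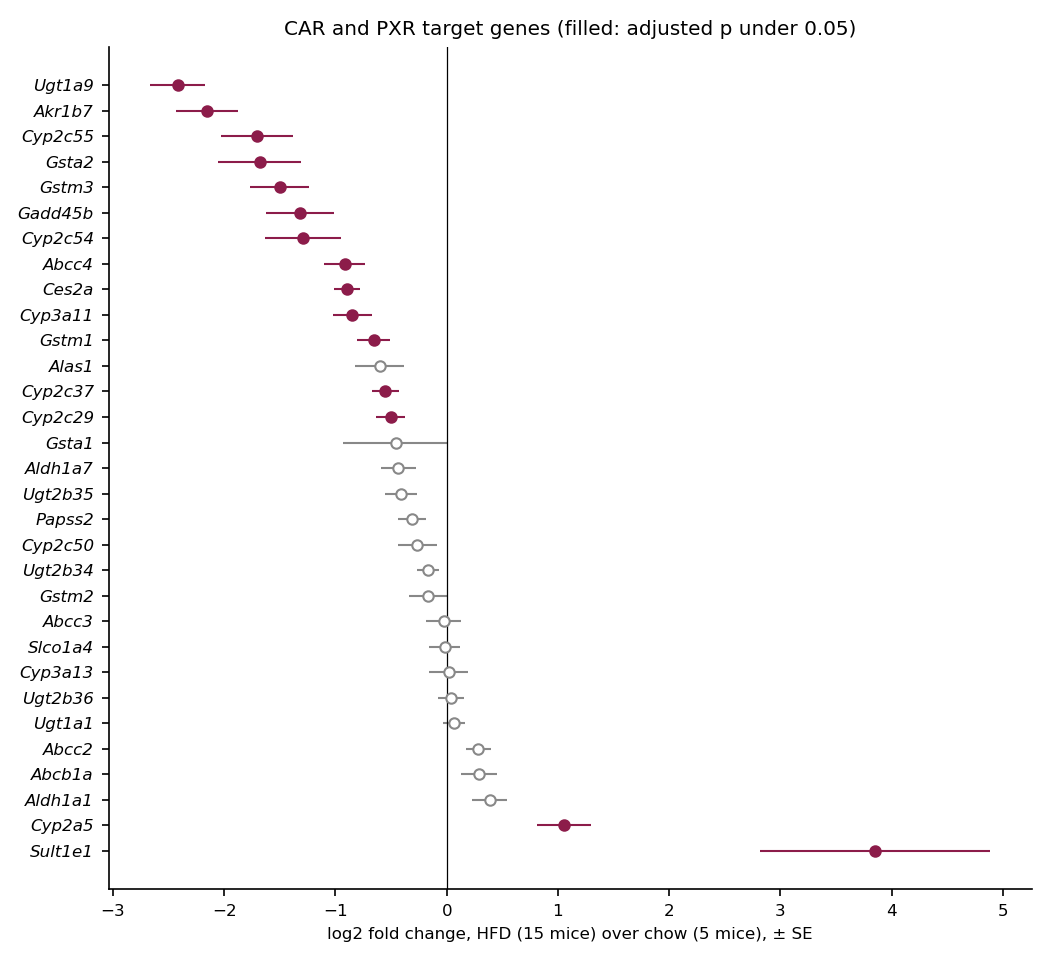
Log2 fold change of HFD (15 mice) over chow (5 mice) with its SE for the 31 measured CAR and PXR target genes, sorted; filled points have an adjusted p under 0.05 by edgeR. Of the filled points 13 lie below 0, down to -2.42 for Ugt1a9, and 2 lie above, up to 3.85 for Sult1e1.

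Between the HFD groups, 0 of the target genes were called by edgeR, DESeq2 or limma. In Fishmeal versus Salmon, 11 of 30 had an unadjusted p under 0.05 by edgeR, 11 by DESeq2 and 7 by limma, and 9 of 30 by edgeR with mouse 31 counted as Beef. Among all genes tested in this pair, 4.24% had an unadjusted p under 0.05 by edgeR. All 11 by edgeR were higher in Fishmeal, and the median log2 fold change of the 30 was 0.28 beside 0.011 for all genes. The lowest adjusted p there was 0.46 by edgeR and 0.0919 by DESeq2. In Fishmeal versus Beef, grouped only as labelled, 5 of 31 had an unadjusted p under 0.05 by edgeR, beside 2.33% of all genes. All 5 were higher in Fishmeal, and the median log2 fold change of the 31 was 0.26 beside -0.003 for all genes. In Salmon versus Beef, grouped only as labelled, the count was 1 of 30, beside 3.71% of all genes, with a median of 0.002.

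Of 18 genes for partners and cofactors of the receptors, 2 fell and 0 rose in HFD versus chow. Of all genes tested, 5.21% fell and 4.54% rose. The median log2 fold change of the 18 was -0.07. The count of genes that rose was 1 without Chow mouse 5 or 7, Fishmeal mouse 12 or 16 or Beef mouse 32 and by DESeq2, and 2 with offsets that correct for GC content and length, while the count that fell was 1 with limma, with the clock score or on all genes with at least 1 count. Egfr, the receptor whose signal holds CAR inactive, fell from 311 ± 177 to 117 ± 81.1 CPM (log2 fold change -1.41, SE 0.333, adjusted p = 0.00899 by edgeR), and its adjusted p was 0.0575 without Chow mouse 5. Dnajc7, a cochaperone that keeps CAR in the cytoplasm, fell by 0.23 on the log2 scale (SE 0.068, adjusted p = 0.0315), a call lost without Chow mouse 1, 2 or 7 or Fishmeal mouse 13 (adjusted p = 0.125, 0.0737, 0.119 and 0.0522). Nr0b2, a corepressor picked out after its values were seen, had 16.6 ± 5.33 CPM on HFD and 9.18 ± 4.39 CPM on chow, and an adjusted p of 0.0553 by edgeR.

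Of 13 genes for P450 electron transfer and haem synthesis, the partners of Por in supplying the enzymes, 0 were called by edgeR, DESeq2 or limma and 2 had an unadjusted p under 0.05 by edgeR, beside 24.4% of all genes, with a median log2 fold change of 0.03. Picked out after its values were seen, Alas1, the first enzyme of haem synthesis and also on the target list, was among the 2, at -0.60 on the log2 scale with an SE of 0.223 and an adjusted p of 0.09 by edgeR. Without Beef mouse 39, 1 gene of the list was called lower, and this count also reached 1 among the other ways of processing.

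Since Cyp2b9 and Cyp2b13 are female-predominant, 20 other such genes were set beside them. In HFD versus chow 5 fell, 2 rose and 13 did not pass, beside 5.21% of all genes called lower and 4.54% higher. The median log2 fold change of the 20 was -0.19. The list as a whole thus did not share the higher level of Cyp2b9 and Cyp2b13. The sulfotransferase gene Sult3a1 fell by 1.88 (SE 0.307, adjusted p = 3.92e-04 by edgeR) and the P450 gene Cyp2c69 by 1.096 on the log2 scale (adjusted p = 0.00219), both with no overlap between the groups, beside 1.64% of all genes. Hao2, a peroxisomal oxidase gene, rose by 1.56 on the log2 scale (SE 0.286, adjusted p = 0.0012), and Slc22a27, the other gene that rose, by 0.49 (adjusted p = 0.0159). The count of genes that rose was 1 without Chow mouse 2.

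Of 14 measured male-predominant genes, which are low in female liver, 6 fell and 0 rose, beside 5.21% and 4.54% of all genes. The median log2 fold change of the 14 was -0.56. The transporter gene Slco1a1 fell from 59.1 ± 41.0 to 4.34 ± 7.71 CPM (log2 fold change -3.78, SE 0.746, adjusted p = 0.00219 by edgeR). Selenbp2 fell by 1.66 on the log2 scale (adjusted p = 1.81e-04 by edgeR) with no overlap between the groups, beside 1.64% of all genes. Hsd3b5 and Elovl3 fell by 2.29 and 1.04 on the log2 scale (adjusted p = 0.0034 and 0.0336 by edgeR). The call of Hsd3b5 was lost without Chow mouse 1 (adjusted p = 0.0855), and that of Elovl3 without Chow mouse 1, 5 or 10 (adjusted p = 0.0783, 0.0957 and 0.144). The count of 6 was 3 without Chow mouse 1.

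Of the clock genes themselves, 8 of 10 in the second arm rose in HFD versus chow, beside 4.54% of all genes. The median log2 fold change of the 10 was 1.75, and 4 of 10 rose without Chow mouse 7. Dbp (4.70, adjusted p = 0.00423), Ciart (3.29, 0.0282), Per3 (2.62, 0.0169) and Tef (1.80, 0.00417) had the largest log2 fold changes among them (adjusted p by edgeR). The call of Ciart was lost without Chow mouse 1, 2, 7 or 10 (adjusted p = 0.055 to 0.08) and that of Per3 without Chow mouse 7 (adjusted p = 0.0538). Of 5 first-arm genes, Cry1 (-0.92, adjusted p = 0.0424) and Clock (-0.45, adjusted p = 0.0374) fell. Neither call was firm, since that of Cry1 was lost on leaving out any of 12 mice (adjusted p = 0.0524 to 0.161 by edgeR; Chow mice 1, 2 and 7, Fishmeal mice 13, 14 and 20, Salmon mice 23, 25 and 27 and Beef mice 35, 39 and 40). That of Clock was lost on leaving out any of 7 (adjusted p = 0.0504 to 0.154 by edgeR; the 5 chow mice, Fishmeal mouse 20 and Beef mouse 39), and 4 genes were called without Salmon mouse 31.

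Position in the liver lobule was checked with genes of its zones, as CYP2B enzymes belong to the pericentral zone. Of 9 pericentral genes, Cyp1a2 (log2 fold change -0.94, adjusted p = 9.82e-04 by edgeR) and Axin2 (-0.77, adjusted p = 0.00305, no overlap between the groups) fell and 0 rose. Of all genes tested, 5.21% fell and 4.54% rose, and 1.64% had groups that did not overlap. The median of the pericentral genes was 0.08, and 1 of them was called higher without Chow mouse 5 or 10 or Beef mouse 32. The count called higher also reached 1 among the other ways of processing. Of 9 periportal genes 0 were called by edgeR, DESeq2 or limma, with a median of 0.04. At an unadjusted p under 0.05 by edgeR there were 2, beside 24.4% of all genes. Without Fishmeal mouse 14, 1 was called higher, and this count also reached 1 among the other ways of processing.

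Markers of other liver cells were read beside these results. All 4 B cell markers fell, and their summed level was 4.515 to 11.1 CPM on chow and 1.59 to 4.505 CPM on HFD. These ranges did not overlap but nearly touched. Among all genes tested, 5.21% fell and 4.54% rose. Among markers of T cells (1 of 3), endothelial cells (1 of 5) and cholangiocytes (1 of 5) single genes fell, 1 of 5 red blood cell markers rose, and 0 of 6 Kupffer cell and 0 of 6 stellate cell markers were called. The summed ranges of these other cell types overlapped between the diets. Their part in the results above was not tested.

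Genes whose level was most like that of the Cyp2b genes were named among 11559 protein coding genes with a mean of at least 1 CPM, as a description. Over all 20 mice, which share the diet difference, Gm2a (r = 0.95), Htatip2 (0.93), Acmsd (0.92), Itih5 (0.92) and the glutathione transferase gene Gstm4 (0.91) were most like Cyp2b10. The fatty acid transporter gene Cd36 (r = 0.89), Impg2 (0.89), Ugt3a1 (0.86), Rtn4 (0.85) and Slc22a27 (0.85) were most like Cyp2b9. Fabp2, a fatty acid binding protein gene (r = 0.92), Il1rap (0.90), Ildr2 (0.90), Ugt1a6b (0.89) and Agxt2 (0.89) were most like Cyp2b13.

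Over the 15 HFD mice relative to group means, other names came first. For Cyp2b10 they were the glutaminase gene Gls2 (r = 0.94), the cystathionine lyase gene Cth (0.93), Ccl9 (0.92), the aspartate transaminase gene Got1 (0.92) and Cks2 (0.91). For Cyp2b9 they were Sesn3 (r = 0.88), Pop1 (0.87), Fam210a (0.86), Dsg2 (0.85) and Elp4 (0.85), and for Cyp2b13 Car3 (0.87), Sucnr1 (0.86), Ugt2a3 (0.84) and the bile acid reductase gene Akr1d1 (0.84). None of the 5 genes most alike to each Cyp2b gene over all mice was among its 5 most alike within the HFD mice.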

How the data were processed

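The 7 genes, the lists and the alternatives were chosen with earlier results of these data known. The authors prepared strand-specific mRNA libraries, trimmed 50-base read pairs with BBDuk, mapped them with HISAT2 (version 1.2.1 per the labels) and assigned reads to Ensembl genes with featureCounts (1.4.6-p1). Their notes name the build GRCh38, the name of a human build, although the identifiers are those of mouse genes. Handling of strand and of reads that fit several genes is not given in the sources used here. The deposited tables hold raw counts and TPM made from them by the authors. Counts were fitted with edgeR 4.0.16 in R 4.3.3 (TMM, filterByExpr at 10 counts, quasi-likelihood F-test, two-sided, Benjamini-Hochberg over all genes tested, called at an adjusted p under 0.05). CPM use TMM factors over all libraries, and log2 CPM a prior count of 2. Pairs of HFD groups were fitted on their own mice. Intervals are 95% from the fitted t distribution. Relations used two-sided permutations of mice within HFD groups, 100000 each, with Benjamini-Hochberg adjustment over each family. Alternatives were DESeq2 1.42.0, limma 3.58.1 on log2(TPM + 1), other scalings, filters and covariates, and leaving out each mouse. edgeR was run on simulated counts with the same dispersion for every gene, which is no check for genes that vary more, such as Cyp2b10. Genes are named by rule: the 7, other Cyp2b genes, from each list up to 4 called genes of largest change and any whose groups did not overlap, and the 5 most alike. Of the genes the rule names, 2 are not reported here. Gene positions are from GENCODE on GRCm38 and start windows from RefSeq; 55141 identifiers matched the reference. Ces6 was not found in the table. Nothing in the labels says that mice of a group came from separate cages, so p-values measure the spread between these mice.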

Additional observations from a re-analysis of the deposited data

Results flagged for a closer look

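In 57 sets of 4 to 6 mice (the values of the 7 genes and the clock score in each diet group, and of named list genes on chow), 7 held a mouse far from the others by Dixon's ratio, where chance flags about 1 in 20. Cyp2b10 in Chow mouse 1 was at 69.6 CPM, while the other chow mice had 18.8 to 32.9 CPM. Nr1i2 in Fishmeal mouse 20 was at 117 CPM against 83.4 to 91.6 CPM in its group. Rxra in Fishmeal mouse 16 was at 301 CPM against 446 to 483 CPM. On chow, Abcc4 was low in Chow mouse 1 at 6.07 CPM, where the others had 7.44 to 7.84 CPM, and Clock was high in the same mouse at 84.4 CPM against 64.6 to 68.4 CPM. In Chow mouse 5, Sult3a1 was at 448 CPM against 178 to 233 CPM, and Tef at 46.8 CPM against 24.4 to 28.5 CPM. Without Chow mouse 1, the log2 fold change of Cyp2b10 in HFD versus chow was -3.74.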

How the results depend on the processing

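No paired analysis was possible because the mouse numbers are not shared between groups. Against chow, the log2 fold changes of Cyp2b10 (-4.33 to -3.74), Cyp2b9 (0.36 to 0.49) and Cyp2b13 (0.83 to 1.202) kept their direction on leaving out any mouse. The clock score as covariate moved Nr1i3 to -0.21, Nr1i2 to -0.36 and Por to -0.83. It left 5 target genes and 1 female-predominant gene called lower, where 161 of all 17120 genes were called lower. With it, 2 second-arm clock genes were called higher, and Ciart was at -0.064, Per3 at -0.22 and Cry1 at 0.076. The score is made from these clock genes, so their values in that fit are no test of them. With limma on log2(TPM + 1), 3 male-predominant genes were called lower. Leaving out 1 mouse gave 3 to 7 male-predominant genes called lower and 4 to 10 second-arm genes called higher. Between HFD groups, the covariate turned Fishmeal versus Beef to -0.42 for Cyp2b10 and -0.027 for Cyp2b9, and limma turned Cyp2b9 in Salmon versus Beef to 0.065, none of them called. Without 1 mouse, Cyp2b10 ranged from -0.69 to 0.19 in Fishmeal versus Salmon and from -0.0097 to 0.87 in Fishmeal versus Beef, and Cyp2b9 from -0.079 to 0.068 in Salmon versus Beef. Among the relations, r of Cyp2b9 with Cyp2b10 was 0.54 and past the threshold with mouse 31 counted as Beef. On log2(TPM + 1), r was 0.11 for Nr1i3 with Cyp2b9, 0.23 for Nr1i3 with Cyp2b13 and -0.72, no longer past it, for Nr1i3 with Cyp2b10. Without 1 mouse, r was 0.56 to 0.83 for Cyp2b9 with Cyp2b13, -0.68 to -0.25 for Nr1i3 with Cyp2b9 and -0.88 to -0.66 for Nr1i3 with Cyp2b10. The cause of these changes was not tested. Over all genes, 1669 were called in HFD versus chow, 46.6% of them higher, against 2539 with GC content and length offsets, 333 with the clock score, 1220 with limma (33.9% higher), and 986, 1070.0 and 1049 without Chow mouse 1, 2 or 7. The low Cyp2b10 counts on HFD limit the precision of its comparisons between protein sources. The relations with the clock score were added after the data were seen.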
